A study of Mus with 30 samples.

Results

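The cardiac myosin heavy chains Myh6 and Myh7 were followed through the hearts of 30 mice. Both were found by transcript identifier, ENSMUST00000081857 for Myh6 and ENSMUST00000102803 for Myh7, and they make up 2 of the 36503 identifiers in all tables together. Both identifiers were listed in all 30 libraries. The gene names come from the rule that chose the identifiers, since the files pair no identifier with a gene name. RNA was sequenced from cardiac tissue of C57BL/6 mice, a common inbred laboratory strain, with 5 mice in each of 6 groups, after removal of ribosomal RNA. The Ang II + ethoxysanguinarine group received, over 28 days, an infusion of angiotensin II (Ang II, a peptide hormone that constricts vessels) at a dose of 500 ng/kg/min together with ethoxysanguinarine at 5 mg/kg/day. The Ang II + baicalin group received baicalin at 5 mg/kg/day, the Ang II + gastrodin group gastrodin at 5 mg/kg/day, and the Ang II + valsartan group valsartan, a blocker of the Ang II receptor, at 10.4 mg/kg/day, each with the same infusion. The Ang II group had the infusion with saline as treatment, and the Control group had saline for both. The study's methods, which cover the Control, Ang II and gastrodin groups, describe male mice 8 weeks old, the left part of the heart as the part sequenced, and 6 mice a group where the labels name 5. Ethoxysanguinarine is a plant alkaloid, baicalin a flavone glucuronide and gastrodin a phenolic glucoside.

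Myosin heavy chain is the motor of the sarcomere's thick filament, which splits ATP and pulls on actin. Myh6 encodes the alpha chain, which is fast and is the main form in the adult mouse ventricle, whereas Myh7 encodes the slower beta chain, which is the main form in the fetal mouse ventricle. In rodent hearts under pressure overload a shift of expression to Myh7 is a widely used sign of pathological hypertrophy, so the level of each chain and the ratio of Myh7 to Myh6 were compared between groups. In the RefSeq annotation of the mouse genome (GRCm38.p6), looked up by symbol, the 2 genes lie beside each other on chromosome 14. Myh6 spans chr14:54941921-54968017 and Myh7 spans chr14:54970684-54994626, with 2666 bases between them. The submitters' processing notes name build mm10.

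No difference in Myh6, in Myh7 or in their ratio passed the threshold (adjusted p under 0.05) between any pair of groups. The levels were read as FPKM, fragments scaled for transcript length and library size, so that the chains can be set beside each other. Myh6 averaged 741 ± 451 FPKM and Myh7 averaged 20.5 ± 9.16 FPKM (SD, n = 30). In 29 of the 30 libraries Myh6 ranked between 27 and 198 among all transcripts listed, and Myh7 between 831 and 4049. The exception was mouse 5156 of the Ang II group, where Myh6 stood at 1.38 FPKM (rank 15895) and Myh7 at 0.0448 FPKM (rank 28424). Myh6 also serves as a defining gene of cardiac muscle, and the Myh6 transcript followed here was thus near 0 in a library labelled cardiac tissue. Results that rest on the Ang II group are therefore given with this mouse and without it. In bulk tissue, fewer cells of a type and less RNA per cell cannot be told apart. The value is also that of a single transcript identifier and not of the whole gene. How reads were divided among transcripts was not tested.

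In its totals the library of mouse 5156 was in the range of the others. Its values summed to 641788, against 562189 to 654188 in the other 29 libraries, and 18591 transcripts stood at 1 FPKM or more, against 16808 to 20446. Its mean correlation with the other libraries (Pearson r across transcripts, 0.804) was the second lowest of the 30, after mouse 5113 of the baicalin group (0.797). Other cardiac, atrial, vascular and blood marker genes were not analysed here, because 0 identifiers matched the reference table used.

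The Myh6 values of single mice spread widely in all groups. In the Ang II + ethoxysanguinarine group Myh6 stood at 333, 554, 572, 861 and 1485 FPKM (mean 761 ± 446, SD, n = 5). In the Ang II + baicalin group it stood at 185, 326, 403, 544 and 622 FPKM (416 ± 174, SD, n = 5). The baicalin group had the lowest mean, and its highest mouse lay below the median of the valsartan, Ang II and Control groups. In the Ang II + gastrodin group Myh6 stood at 216, 244, 406, 1095 and 1119 FPKM (616 ± 454, SD, n = 5). In the Ang II + valsartan group it stood at 163, 330.2, 985, 1142 and 1218 FPKM (768 ± 487, SD, n = 5). Both of these groups held mice at a low and mice at a high level, with none between 406 and 985 FPKM. In the Ang II group Myh6 stood at 1.38, 852, 1228, 1246 and 1249 FPKM (915 ± 538, SD, n = 5, or 1144 ± 195, n = 4, without mouse 5156). In the Control group it stood at 288, 579, 1202, 1274 and 1493 FPKM (967 ± 510, SD, n = 5). The remaining 4 Ang II mice lay within the Control range.

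Myh7 lay below Myh6 in every mouse. It stood at 15.3, 18.4, 24.5, 26.2 and 32.4 FPKM in the Ang II + ethoxysanguinarine group (23.4 ± 6.72, SD, n = 5). It stood at 14.8, 15.3, 18.7, 34.5 and 39.3 FPKM in the Ang II + baicalin group (24.5 ± 11.5, SD, n = 5). These groups had the highest means, and the baicalin group held the 2 highest single mice of all 30. Myh7 stood at 14.5, 17.4, 17.6, 24.1 and 28.1 FPKM in the Ang II + gastrodin group (20.3 ± 5.61, SD, n = 5). It stood at 7.66, 10.2, 14.7, 22.5 and 34.1 FPKM in the Ang II + valsartan group (17.8 ± 10.7, SD, n = 5). The gastrodin values lay wholly within the valsartan range. In the Ang II group Myh7 stood at 0.0448, 10.9, 16.0, 17.9 and 32.8 FPKM (15.5 ± 11.9, SD, n = 5, or 19.4 ± 9.41, n = 4, without mouse 5156). In the Control group it stood at 7.61, 19.2, 24.6, 25.4 and 29.5 FPKM (21.3 ± 8.48, SD, n = 5). Apart from mouse 5156, the lowest Myh7 value of the 30 was in a Control mouse, 5116, which also had the highest Myh6 value.

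**Figure D1:**
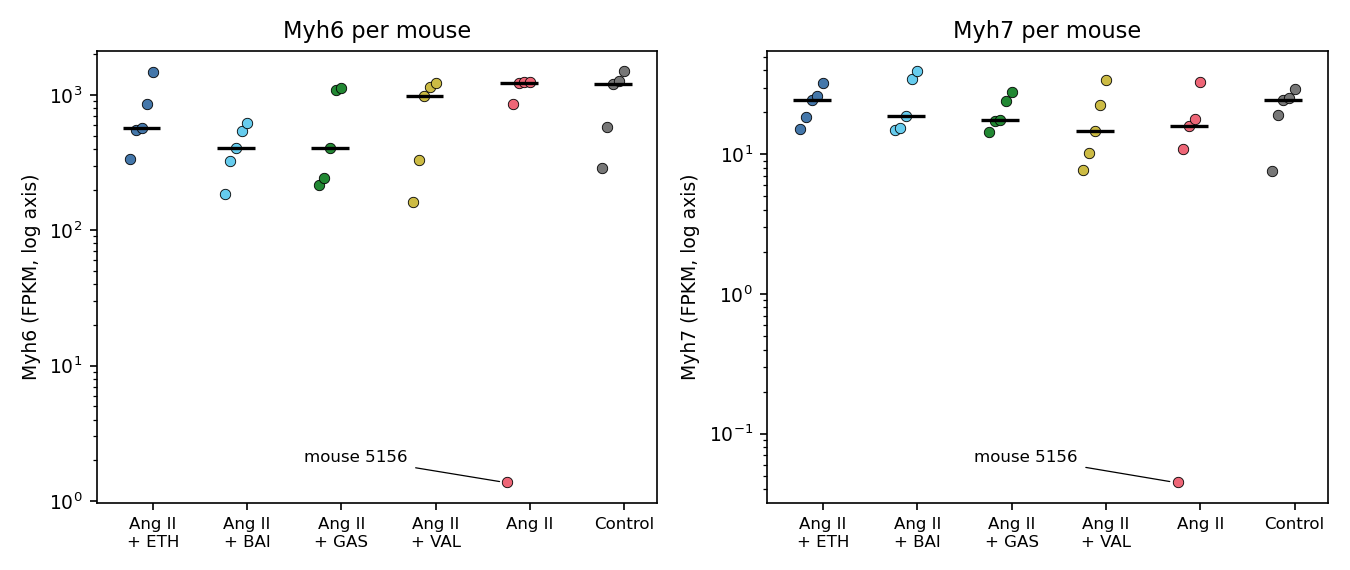
Myh6 (left) and Myh7 (right) in FPKM on a log axis for each mouse, with 1 point per mouse, 5 mice a group and a bar at the group median (ETH, ethoxysanguinarine, BAI, baicalin, GAS, gastrodin, VAL, valsartan). Mouse 5156 of the Ang II group lies at 1.38 FPKM for Myh6 and 0.0448 FPKM for Myh7, far below the other 29 mice, and all groups overlap.

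The Ang II mice were set against the Control mice to see whether the infusion moved the myosin chains. On log2(FPKM + 1), the estimate for Myh6 in Ang II against Control was a log2 fold change of -1.32 (standard error, SE, 1.65, 95% interval -5.0 to 2.35, limma adjusted p = 0.842). For Myh7 it was -0.95 (SE 0.84, 95% interval -2.82 to 0.92, adjusted p = 0.775). Both groups overlapped for both genes, and 0 of the 2 transcripts passed, either at the adjusted p or at an unadjusted p under 0.05. Among all 18354 transcripts tested, 7 passed at the adjusted p (0.0381%) and 1676 at the unadjusted p (9.13%). Without mouse 5156 the direction of Myh6 turned, to 0.45 (SE 0.46, adjusted p = 0.810), and that of Myh7 was -0.11 (SE 0.42, adjusted p = 0.950). With all mice and a pseudocount of 0.1 in place of 1, Myh7 had a log2 fold change of -1.50 (adjusted p = 0.768). The sign of the Myh6 difference thus depended on this 1 mouse.

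Each compound group was then set against the Ang II group, and the same 5 Ang II mice served in all 4 comparisons. With all mice, Myh6 had log2 fold changes of 1.03 with ethoxysanguinarine (SE 1.64, adjusted p = 0.900), 0.22 with baicalin (1.63, adjusted p = 0.976), 0.55 with gastrodin (1.68, adjusted p = 0.961) and 0.85 with valsartan (1.69, adjusted p = 0.945). All 4 are positive on the log scale, while all 4 group means in FPKM lay below the Ang II mean. Without mouse 5156, Myh6 turned to -0.75 with ethoxysanguinarine (SE 0.38, adjusted p = 0.674), -1.56 with baicalin (0.33, adjusted p = 0.333), -1.22 with gastrodin (0.53, adjusted p = 0.779) and -0.93 with valsartan (0.59, adjusted p = 0.854). None passed either way, with all mice or without mouse 5156. With all mice, 0 of the 2 transcripts passed in any of the 4 comparisons. Over all transcripts the share passing was 24 of 18242 (0.132%) with ethoxysanguinarine, 3 of 18140 (0.0165%) with baicalin, 4 of 18155 (0.022%) with gastrodin and 4 of 18196 (0.022%) with valsartan.

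The comparison of baicalin with Ang II shows how much that mouse decides. The 5 baicalin mice stood at 185 to 622 FPKM of Myh6 and the 4 remaining Ang II mice at 852 to 1249 FPKM. These ranges do not overlap, and the unadjusted p of this comparison was 0.00116 (limma). Of the 17152 transcripts tested without mouse 5156, 761 had groups that did not overlap (4.44%), and 0 passed at the adjusted p while 1606 passed at the unadjusted p (9.36%). With gastrodin the unadjusted p without the mouse was 0.0479, where 6.4% of all transcripts passed, and the groups overlapped.

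For Myh7 the compound groups stood above the Ang II group in the fit with all mice. Its log2 fold changes were 1.15 with ethoxysanguinarine (SE 0.81, 95% interval -0.64 to 2.95, adjusted p = 0.743), 1.15 with baicalin (0.83, -0.69 to 3.0, adjusted p = 0.699), 0.97 with gastrodin (0.80, -0.83 to 2.77, adjusted p = 0.860) and 0.65 with valsartan (0.85, -1.26 to 2.55, adjusted p = 0.923). Without mouse 5156 they were 0.32 with ethoxysanguinarine, 0.32 with baicalin, 0.13 with gastrodin and -0.19 with valsartan, with adjusted p between 0.827 and 0.954. The direction with valsartan turned, and the other 3 kept theirs. With all mice and a pseudocount of 0.1 in place of 1 they were 1.73 with ethoxysanguinarine, 1.72 with baicalin, 1.54 with gastrodin and 1.18 with valsartan, and none passed (adjusted p between 0.714 and 0.900). With all mice the 4 intervals reach from -1.26 to 3.0 on the log2 scale, so the misses do not show that the groups had the same Myh7 level.

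**Figure D2:**
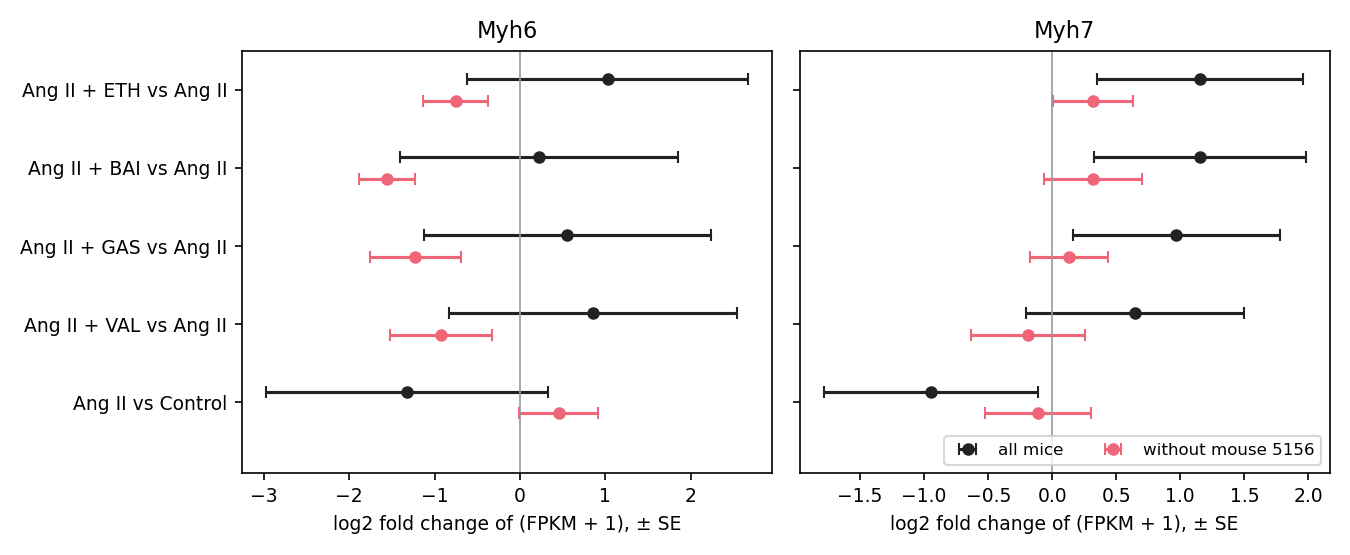
Log2 fold change of FPKM + 1 with its standard error (SE, limma) for Myh6 (left) and Myh7 (right) in the 5 main comparisons, for all mice in black and without mouse 5156 in red. All 5 Myh6 estimates change sign when the mouse is left out, whereas among the Myh7 estimates only that for valsartan does.

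Set in order by mean FPKM, Myh6 ran from Control and Ang II through valsartan, ethoxysanguinarine and gastrodin to baicalin. No neighbours in that order passed the threshold on log2(FPKM + 1) (adjusted p between 0.842 and 0.991, limma). On that scale, with all mice, valsartan stood above Ang II (log2 fold change 0.85) and ethoxysanguinarine above valsartan (0.17), unlike their means in FPKM. The other neighbours kept their order. Without mouse 5156 the Ang II mean (1144 FPKM) stood above the Control mean (967 FPKM), with an adjusted p of 0.810. Myh7 ran from baicalin and ethoxysanguinarine through Control, gastrodin and valsartan to Ang II, with adjusted p of 0.913 or more between neighbours. Without mouse 5156 the Ang II mean of Myh7 (19.4 FPKM) stood between those of gastrodin (20.3 FPKM) and valsartan (17.8 FPKM), with adjusted p of 0.941 for gastrodin against Ang II and 0.954 for valsartan against Ang II. Baicalin against Control gave a Myh6 log2 fold change of -1.10 (SE 0.49, 95% interval -2.19 to -0.02, unadjusted p = 0.0472, adjusted p = 0.591), with 416 ± 174 FPKM in Ang II + baicalin and 967 ± 510 FPKM in Control (SD, n = 5 each). Among the 30 tests of the 2 transcripts over all 15 pairs of groups, 0 passed at the adjusted p and this was the only 1 with an unadjusted p under 0.05, a share that lay between 4.48 and 9.75% for all transcripts. Between baicalin and Control 8.41% of all transcripts had an unadjusted p under 0.05, and 2 of 18437 passed at the adjusted p (0.0108%). In the remaining pairs the percentage of all transcripts that passed at the adjusted p was, against Control, 0.225% with ethoxysanguinarine, 0.0703% with gastrodin and 0.0108% with valsartan. It was 0.0271% for ethoxysanguinarine against baicalin, 0.0974% for ethoxysanguinarine against gastrodin, 0.108% for ethoxysanguinarine against valsartan, 0.0164% for baicalin against gastrodin, 0.0328% for baicalin against valsartan and 0.0435% for gastrodin against valsartan. Over the 6 groups at once, limma's F was 0.389 for Myh6 (adjusted p = 0.968) and 1.10 for Myh7 (adjusted p = 0.850), where 39 of 24844 transcripts passed (0.157%). Without mouse 5156 F was 1.69 for Myh6 (adjusted p = 0.737) and 0.522 for Myh7 (adjusted p = 0.949).

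The ratio of Myh7 to Myh6 is taken within a mouse and is free of any scaling of the library. It compares 1 transcript identifier of each gene and not the whole genes, so it can move with the share of a gene's reads given to that identifier. Myh7 as a percent of Myh6 stood at 2.14, 2.18, 4.43, 4.58 and 4.58% in the Ang II + ethoxysanguinarine group. It stood at 2.46, 3.44, 8.03, 8.57 and 12.1% in the Ang II + baicalin group. Of these groups, the first was narrow and the second reached the second highest value of all mice. The ratio stood at 1.29, 2.20, 6.93, 7.22 and 8.04% in the Ang II + gastrodin group and at 0.841, 1.49, 2.32, 2.99 and 13.8% in the Ang II + valsartan group. The highest value, in valsartan mouse 5148, came with the lowest Myh6 level of the 29 mice (163 FPKM) and a Myh7 level of 22.5 FPKM. The ratio stood at 1.28, 1.28, 1.43, 2.67 and 3.25% in the Ang II group, with mouse 5156 the highest from 2 levels near 0, and at 0.509, 1.51, 2.05, 5.11 and 8.84% in the Control group. All groups overlapped. The Ang II mice lay close together at the low end, within the Control range.

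A shift from the Myh6 to the Myh7 transcript followed here was not detected with Ang II infusion in these mice. The ratio averaged 1.98 ± 0.919% in the Ang II group and 3.6 ± 3.39% in the Control group (SD, n = 5 each), which is a difference in mean log2 ratio of -0.36 (SE 0.77, exact permutation test, two-sided, p = 0.667, adjusted p = 0.723 over the 15 pairs of groups). Its direction turned to 0.12 without Control mouse 5114 and to 0.38 with a pseudocount of 1 in both values. Without mouse 5156 the difference was -0.57 (exact permutation p = 0.492, adjusted p = 0.671). The smallest p that 5 against 5 mice allow in this test is 0.00794. A single pair at that p has an adjusted p of 0.119 over the 15 pairs, so 1 pair alone could not pass the threshold.

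The ratio was higher in the compound groups than in the Ang II group by amounts that did not pass after adjustment. In the baicalin group it averaged 6.91 ± 3.95% against 1.98 ± 0.919% in the Ang II group (SD, n = 5 each), 3.22-fold higher on the mean of log2 ratios (difference 1.69, SE 0.52, exact permutation p = 0.0317, adjusted p = 0.357). In the ethoxysanguinarine group it averaged 3.58 ± 1.30% against the same Ang II mice, 1.84-fold higher (difference 0.88, SE 0.39, exact permutation p = 0.0476, adjusted p = 0.357). Of the baicalin mice 4 of 5 lay above the highest Ang II mouse, and of the ethoxysanguinarine mice 3 of 5. The gastrodin group averaged 5.14 ± 3.14%, with a log2 difference from Ang II of 1.16 (SE 0.61, exact permutation p = 0.103, adjusted p = 0.476). The valsartan group averaged 4.29 ± 5.39%, with a log2 difference of 0.51 (SE 0.74, exact permutation p = 0.571, adjusted p = 0.723), which turned to -0.09 without valsartan mouse 5148 and to -0.21 with a pseudocount of 1 in both values. Without mouse 5156 the differences were 1.89 with baicalin, 1.09 with ethoxysanguinarine, 1.37 with gastrodin and 0.72 with valsartan, with adjusted p between 0.357 and 0.671 by the same exact test. Unlike the Myh6 differences, all 4 kept their direction without that mouse. On log2(FPKM + 1) without mouse 5156, baicalin against Ang II had a log2 fold change of -1.56 for Myh6 and 0.32 for Myh7. Most of that ratio difference thus lay in the Myh6 transcript, and in all 4 comparisons Myh6 moved more than Myh7. With a pseudocount of 1 in both values, the differences were 0.93 with baicalin (exact permutation p = 0.421), 0.13 with ethoxysanguinarine (exact permutation p = 0.960) and 0.42 with gastrodin (exact permutation p = 0.810), all smaller than without it. With group medians in place of means they were larger, at 2.49 with baicalin (exact permutation p = 0.0476), 1.63 with ethoxysanguinarine (exact permutation p = 0.0476) and 2.28 with gastrodin (exact permutation p = 0.119), with adjusted p of at least 0.357. Among the remaining pairs of groups, neighbours in the order of the mean log2 ratio (baicalin, gastrodin, ethoxysanguinarine, valsartan, Control, Ang II) had adjusted p of at least 0.723.

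**Figure D3:**
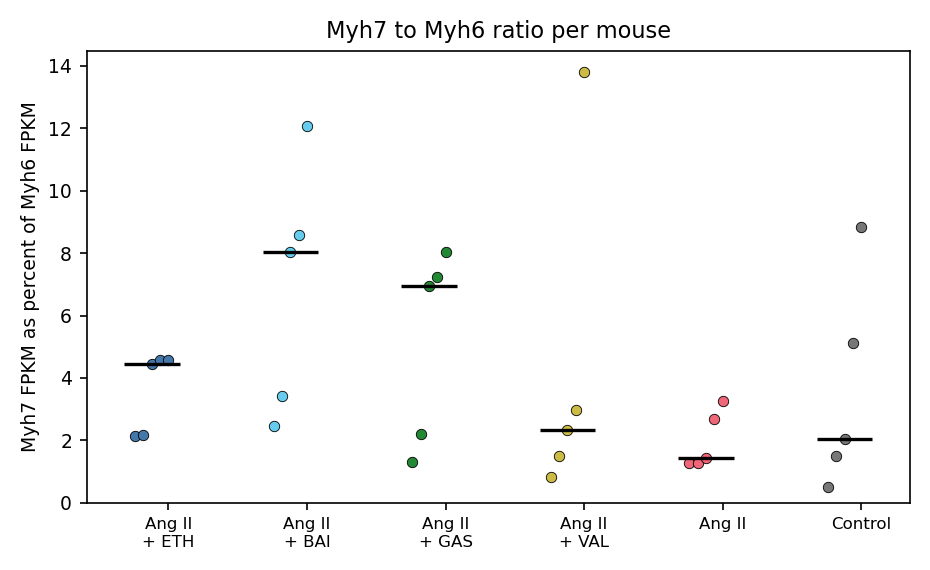
Myh7 FPKM as a percent of Myh6 FPKM for each mouse, with 5 mice a group and a bar at the group median. The Ang II mice lie between 1.28 and 3.25%, 4 of 5 baicalin mice lie above 3.25%, and the Control mice spread from 0.509 to 8.84%.

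Whether mice with more Myh6 had less Myh7 was asked over all mice, and no such relation passed a test. On log2(FPKM + 1) over the 30 mice the correlation was r = 0.65 (permutation p = 0.0214, adjusted p = 0.0854) and rho = 0.04 (permutation p = 0.825, adjusted p = 0.929), and on deviations from the group means r = 0.68 (permutation p = 0.00285, adjusted p = 0.0228) and rho = 0.32 (permutation p = 0.0885, adjusted p = 0.236). Without mouse 5156 the pooled r was -0.07 (permutation p = 0.712, adjusted p = 0.929) and the pooled rho -0.06 (permutation p = 0.753, adjusted p = 0.929). On the deviations, both r and rho were -0.02 without it (permutation p = 0.929 and 0.928, adjusted p = 0.929 for each). Without the 2 mice farthest from the median of Myh6, 5156 and 5148, it was -0.05. The correlation therefore rests on mouse 5156. A family of 8 p-values was adjusted, from 100000 permutations each. The spread of the ratio over the 29 other mice, 0.509 to 13.8%, went with a 9.16-fold range of Myh6 and a 5.17-fold range of Myh7.

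**Figure D4:**
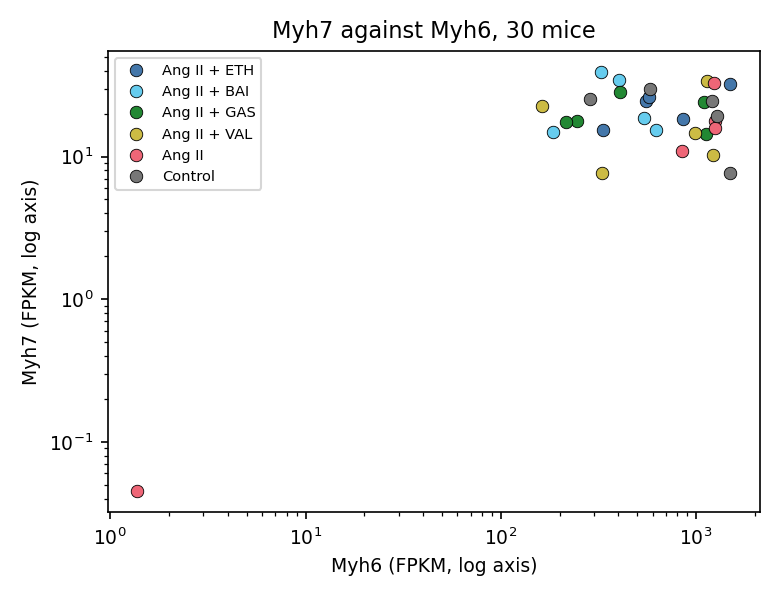
Myh7 against Myh6 in FPKM on log axes, with 1 point per mouse and colours for the 6 groups. The lone Ang II point at the lower left is mouse 5156, and the other 29 mice form a cloud with r = -0.07.

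A few other abundant transcripts of mouse 5156 also stood outside the range of the other mice. After the values were seen, transcripts were listed that had a median of at least 100 FPKM in the other 29 mice and stood in mouse 5156 below the lowest of them by more than 3 times, or that reached at least 100 FPKM there and stood more than 3 times above the highest. Of 28298 transcripts in all tables, 3 were lower and 4 were higher by this rule. Besides Myh6, the lower ones were ENSMUST00000226297, at 35.2 FPKM against 239 to 2280 FPKM in the others, and MERGE.7082.3, at 9.73 FPKM against 279 to 1177 FPKM. Names that begin with MERGE were read as merged transcript models of the submitters. Among the higher ones was a model of the same MERGE.7082 series, MERGE.7082.6, at 1748 FPKM against 24.2 to 539 FPKM, and another was MERGE.7082.4, at 263 FPKM against 0 to 37.1 FPKM. The remaining higher ones were MERGE.24059.40, at 531 FPKM against 0 to 82.1 FPKM, and MERGE.16478.2, at 236 FPKM against 2.10 to 73.3 FPKM. The files do not say which genes these identifiers belong to. By the same rule each of the other 29 mice had between 0 and 3 transcripts lower and between 0 and 8 higher.

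Added to Myh6, the levels of ENSMUST00000226297 and of the 6 MERGE.7082 models gave a sum over 8 identifiers that differed far less between mice than Myh6 did. The sum was 2093 FPKM in mouse 5156, against 2010.5 to 3553 FPKM in the other 29 mice. Its coefficient of variation over the 30 mice was 14.4%, and that of Myh6 alone was 60.9%. Without mouse 5156, whose values had led to the choice of the set, they were 14.2% for the sum and 57.0% for Myh6. A sum can have a lower coefficient than a single part even when its parts vary separately, so part of this drop comes from adding. Over these 29 mice the SD of the sum was 353 FPKM, against 704 FPKM for 8 parts with the same variances that varied independently. Myh6 made up 0.0658% of the sum in mouse 5156 and between 5.96 and 58.6% in the others. By group the sum averaged 2520.1 ± 224 FPKM with ethoxysanguinarine, 2339 ± 252.1 with baicalin, 2222 ± 134 with gastrodin, 2462 ± 180 with valsartan, 2308 ± 196 in the Ang II group and 2932 ± 551 in the Control group (SD, n = 5 each). Over the 29 mice without 5156, Myh6 had a Spearman rho of -0.59 with MERGE.7082.3, -0.40 with MERGE.7082.6, -0.39 with ENSMUST00000226297, -0.35 with MERGE.7082.4 and -0.27 with MERGE.7082.17, but 0.40 with MERGE.7082.8 and 0.14 with MERGE.7082.5, given as a description because the set was chosen after its values were seen. Whether reads were divided among these 8 identifiers differently from mouse to mouse was not tested.

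**Figure D5:**
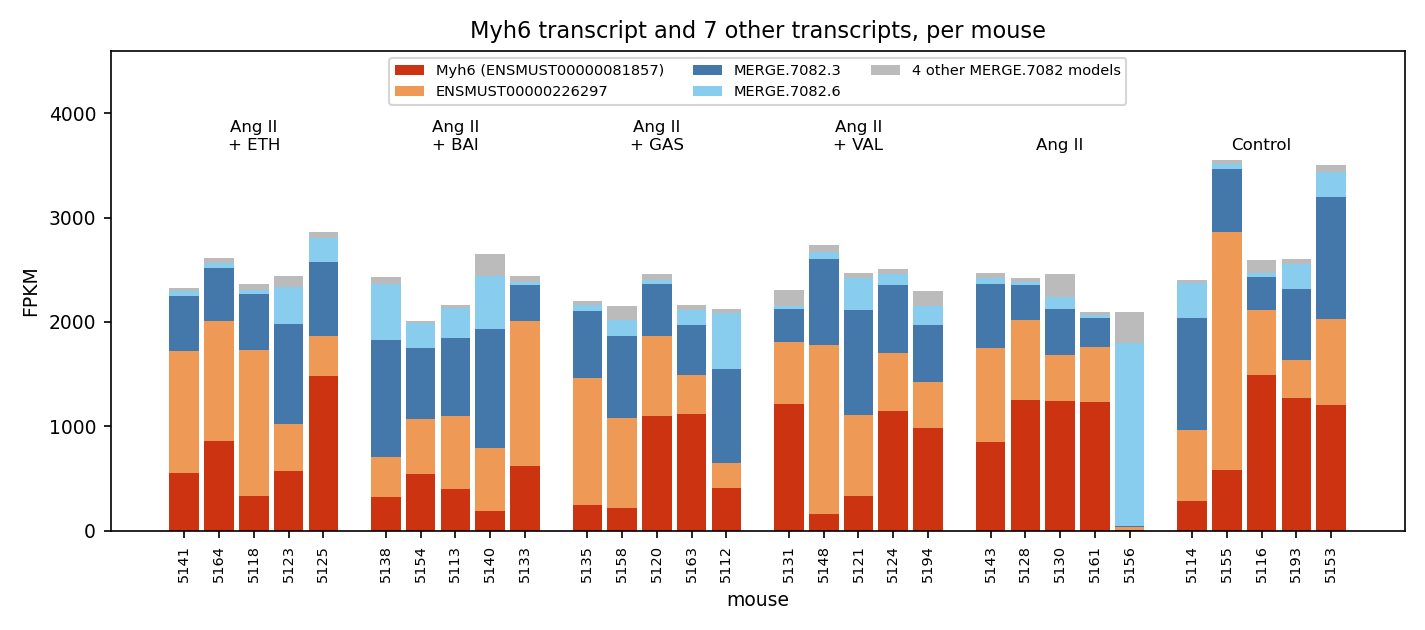
FPKM of the Myh6 transcript (red), ENSMUST00000226297, MERGE.7082.3, MERGE.7082.6 and the 4 other MERGE.7082 models, stacked for each of the 30 mice. In mouse 5156 MERGE.7082.6 alone stands at 1748 FPKM of the 2093 FPKM in the stack, whereas Myh6 takes 1.38 FPKM.

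The likeness of other transcripts to Myh6 and Myh7 over the 30 mice also rested on that mouse. Among 7882 transcripts at 1 FPKM or more in every mouse, the 2 most correlated with Myh6 on log2(FPKM + 1) were ENSMUST00000085192 (r = 0.83, and 0.09 without mouse 5156) and ENSMUST00000075068 (r = 0.78, and 0.34 without it). Those most correlated with Myh7 were MERGE.7082.3 (r = 0.80, and 0.31 without the mouse) and ENSMUST00000085192 (r = 0.78, and -0.10 without it). In mouse 5156 ENSMUST00000085192 stood at 3.34 FPKM, against 58.4 to 92.6 FPKM in the other mice. Over the 29 other mice the highest r with Myh6 was that of ENSMUST00000073471 (0.80) and the highest with Myh7 that of ENSMUST00000114777 (0.72). These are descriptions over mice of all 6 groups, the highest of many, with no test.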

How the data were processed

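The authors deposited 30 tables that list transcripts with 1 value each. These deposited values were taken to be FPKM, scaled by the authors for transcript length and library size, since they are not whole numbers and add up to different totals. No library lists all 36503 identifiers, so differing totals do not tell FPKM from another length-scaled unit. Unit, aligner, quantifier and annotation: not given in the sources used here. Build mm10 and limma appear in the submitters' processing notes, while the study's methods cite DESeq. FPKM values are not counts, so no count model was used. The depth per mouse is unknown, and precision rests on the spread between mice. No library was a copy of another, as the highest correlation of a pair was 0.844.

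Group differences were fitted by limma 3.58.1 under R 4.3.3 (two-sided, with its mean-variance trend) on log2(FPKM + 1), a scale that understates changes of low transcripts. Only transcripts reaching 1 FPKM in 5 or more of the libraries fitted (10 for a pair of groups, 9 without mouse 5156, 30 for the F test) were tested, and Benjamini-Hochberg adjustment ran over all of them. The log2 ratio of Myh7 to Myh6 was compared by an exact permutation test over all divisions of 10 mice into 5 and 5. Scripts ran in Python 3.11.15 with figures in matplotlib 3.10.9. The limma test was checked on simulated data, and the permutation test on made-up values with full separation and with equal groups. The simulated data had independent normal noise and no outlying mouse like 5156. The check therefore does not tell how well changes are found in comparisons that hold such a mouse. The transcripts, lists and tests were chosen with earlier results of these data known. Myh6 and Myh7 were chosen by identifier, and a rule for naming others took the 2 transcripts with the highest Pearson r to each over the 30 mice; those listed for mouse 5156 and those most correlated without it were chosen after the values were seen. Alternatives were 2 other scalings, a pseudocount of 0.1, no filter or a mean of at least 5, no trend, a fit of all groups, each mouse left out, and for the ratio a pseudocount of 1, linear ratios and medians. A sarcomere gene list, cell type markers and sequences were not analysed here, since the reference table used (RefSeq, GRCm38.p6) matched 0 of the identifiers.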

Additional observations from a re-analysis of the deposited data

Results flagged for a closer look

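Mouse 5156 of the Ang II group lay far from the other 4 mice of its group in Myh6. Its log2(FPKM + 1) was 1.25, and the nearest mouse stood at 9.74, so that the gap took up 0.939 of the group's whole range, above Dixon's critical value of 0.71 for 5 samples. Of 18 such checks (Myh6, Myh7 and their ratio in 6 groups) this was the only one past the critical value, and chance passes about 1 in 20. Myh7 in the same mouse reached 0.70 of the range, just short of the critical value. That check was also made on log2(FPKM + 1), where a level of 0.0448 FPKM lies below the pseudocount and the gap is understated. The near miss therefore does not show that Myh7 in this mouse was in keeping with its group.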

How the results depend on the processing

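None of 47 results (2 transcripts and their ratio over 15 pairs of groups, and 2 F tests) passed the threshold, and none did in any of 769 alternative values, where the lowest adjusted p was 0.119, for the ratio of baicalin to Ang II without baicalin mouse 5133. That ratio stood at the smallest p its exact permutation test allows, 0.00794. With adjustment over 15 pairs, 1 pair alone therefore cannot pass in the ratio tests, and their misses carry little weight. The direction turned in 33 of the 769 alternative values. Leaving out each mouse in turn, the log2 fold change of Myh6 lay between -1.81 and 0.45 for Ang II against Control, and against Ang II between -0.75 and 1.51 with ethoxysanguinarine, -1.56 and 0.70 with baicalin, -1.22 and 1.04 with gastrodin, and -0.93 and 1.33 with valsartan. In these 5 only mouse 5156 turned the direction. Over the settings that kept all mice, Myh6 with baicalin against Ang II lay between 0.22 and 0.38. With each mouse left out in turn, the range was -0.29 to 0.43 for Myh6 of ethoxysanguinarine against valsartan. For Myh7 it was -0.19 to 1.06 for valsartan against Ang II, -0.11 to 0.35 for ethoxysanguinarine, -0.11 to 0.35 for baicalin and -0.29 to 0.17 for gastrodin, each of the last 3 against Control, -0.14 to 0.19 for ethoxysanguinarine against baicalin, and -0.011 to 0.33 for baicalin against gastrodin. For the log2 ratio it was -0.91 to 0.12 for Ang II against Control, -0.090 to 0.92 for valsartan against Ang II, -0.028 to 1.00 for ethoxysanguinarine and -0.45 to 0.63 for valsartan, both against Control, and -0.036 to 0.97 for ethoxysanguinarine against valsartan. With a pseudocount of 1 in both values the log2 ratio difference turned to 0.38 for Ang II against Control and -0.21 for valsartan against Ang II. With linear ratios it turned to -0.00019 for ethoxysanguinarine against Control and -0.0071 for ethoxysanguinarine against valsartan. With quantile normalization Myh7 turned to -0.063 for ethoxysanguinarine against baicalin. Mouse 5156 had Myh6 at 1.38 and Myh7 at 0.0448 FPKM, near or below the pseudocount of 1. The lowest Myh7 level of the other 29 mice was 7.61 FPKM. Against Control, in pairs that hold no mouse of the Ang II group, the log2 ratio differences moved little with that pseudocount. They went from 1.33 to 1.31 with baicalin, 0.80 to 0.79 with gastrodin, 0.52 to 0.50 with ethoxysanguinarine and 0.15 to 0.17 with valsartan. The cause of the turns listed here was not tested. The F tests with a mouse left out and the sum over 8 identifiers were added after seeing the data. No paired analysis was possible because nothing in the labels links mice across groups. The depth per mouse is unknown, so no limit from depth can be given.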

Other observations

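By the rule used for mouse 5156, which was set after its values were seen, other libraries also held abundant transcripts far outside the range of the remaining mice. Over the other 29 mice, between 0 and 3 transcripts were lower and between 0 and 8 higher, and 18 of the 30 mice had none lower. Mouse 5113 of the baicalin group had 8 higher and 2 lower, and mouse 5141 of the ethoxysanguinarine group 3 higher and 3 lower. Mouse 5156 had 4 higher and 3 lower.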
